A study of Mus musculus with 21 samples.

Results

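Dot1l knockout mouse embryonic stem (ES) cells were compared after Wnt3a and activin A treatment and in maintenance medium. The 6 libraries were all of the knockout libraries found in the paired expression tables of these conditions, 3 per condition, out of 21 samples in the series. The treated Dot1l knockout cells had been plated on gelatin, held for 2 days in serum-free N2B27 medium with 10 µM Y-27632, a ROCK inhibitor, and then treated, usually for 24 h, with Wnt3a at 50 ng/ml and activin A at 10 ng/ml. The untreated Dot1l knockout cells grew on inactivated mouse embryonic fibroblast feeders with 15% serum and 100 U/ml LIF, the cytokine that holds mouse ES cells in self-renewal. All 6 libraries came from the V6.5 line, a widely used hybrid mouse ES line. The same 2 conditions were available for cells labelled wild type that carried a control sgRNA, with 3 libraries each, and these 6 libraries served as the comparison. The labels do not say whether the knockout cells were 1 clone or a pool, or whether each library had its own culture, so the p-values cover no more than the spread among these samples, which may be technical.

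Dot1l encodes the enzyme that methylates histone H3 within the body of transcribed genes. In the mouse embryo, Wnt and Nodal signals turn the epiblast into primitive streak, whose cells go on to form mesoderm and definitive endoderm. Wnt3a and activin A, a ligand that acts through the Nodal receptors, are used in culture to draw ES cells along that path. On the way, cells lose the naive pluripotency network that LIF maintains and pass through a formative or primed state resembling the later epiblast. The conditions here differed in medium, serum, feeders, ROCK inhibitor and days in culture as well as in Wnt3a and activin A, and these factors cannot be told apart.

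The values are FPKM, fragments normalized for transcript length and library size, rescaled so that the 12 libraries share a common median ratio. Of 53796 listed genes, 13315 averaged at least 1 rescaled FPKM over the 12 libraries and were tested. A gene was called when its adjusted p in limma was under 0.05 and its mean log2(rescaled FPKM + 1) differed by at least 1, which is 2-fold on that scale and understates the change of low genes. Knockout libraries correlated at 0.949 to 0.952 among treated cells, at 0.939 to 0.955 among cells in LIF and at 0.832 to 0.862 between the conditions (Pearson, across genes). Sequencing depth is unknown. The third knockout library in LIF stood apart in that Mir6236 made up 28.6% of its summed FPKM, against 6.92% and 8.31% in the other knockout libraries in LIF. The Dot1l transcript was still present, at 14.4, 13.2 and 15.2 rescaled FPKM in treated knockout cells, against 11.1, 8.8 and 10.9 in knockout cells in LIF. In control cells it averaged 18.4 ± 0.723 with Wnt3a and activin A and 21.4 ± 1.68 in LIF (SD, n = 3 each). Gene-level FPKM does not show whether an edited transcript can encode the enzyme.

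The promoters of 3 genes that rose together are printed here because each holds a match to a sequence motif of a factor in the Wnt or T-box pathway. They are RefSeq windows on GRCm38.p6 from 250 bases before to 50 bases after the gene start, 5′ to 3′ on the gene's strand, with the match in capitals. T, which encodes the T-box factor Brachyury, lies at chr17:8434173-8434472 on the plus strand and holds a T-box match, AGGTGTNA, at -14 from its start. Sp5, a direct Wnt target that encodes a zinc finger factor, lies at chr2:70474673-70474972 on the plus strand and holds a TCF/LEF match, CTTTGAT, at -104. Mesp1, a factor of nascent mesoderm, lies at chr7:79793541-79793840 on the minus strand and holds a TCF/LEF match at -31 and a T-box match, on the opposite strand, at 5, with the start base counted as 0.
T: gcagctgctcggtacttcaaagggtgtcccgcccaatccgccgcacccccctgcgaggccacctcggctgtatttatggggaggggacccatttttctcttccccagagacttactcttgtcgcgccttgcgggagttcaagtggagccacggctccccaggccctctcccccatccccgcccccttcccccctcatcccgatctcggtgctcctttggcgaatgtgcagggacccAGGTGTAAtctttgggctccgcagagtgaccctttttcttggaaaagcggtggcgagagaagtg
Sp5: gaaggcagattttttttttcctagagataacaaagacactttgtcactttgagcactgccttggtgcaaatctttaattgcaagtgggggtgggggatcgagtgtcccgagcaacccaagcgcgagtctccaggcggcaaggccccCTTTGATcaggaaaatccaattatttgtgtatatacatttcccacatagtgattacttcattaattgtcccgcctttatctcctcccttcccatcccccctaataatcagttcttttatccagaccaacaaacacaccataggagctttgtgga
Mesp1: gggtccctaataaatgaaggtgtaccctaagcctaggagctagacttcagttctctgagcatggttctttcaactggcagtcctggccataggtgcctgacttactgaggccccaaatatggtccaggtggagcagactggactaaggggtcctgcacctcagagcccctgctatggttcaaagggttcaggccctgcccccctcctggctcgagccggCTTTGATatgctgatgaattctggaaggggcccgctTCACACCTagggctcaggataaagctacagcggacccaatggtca
Both strands were searched. Of 27025 genes with promoter windows of this length, 4.29% hold the TCF/LEF letters and 3.52% the T-box letters in any of their windows. Of the 15 genes that rose most, 10 matched a promoter, of which 2 (Sp5 and Foxa2) held the TCF/LEF letters and 1 (T) the T-box letters. Of the 15 genes that fell most, 11 matched and none held either. The FoxH1 letters, AATNNACA, which 13.9% of the 27025 genes hold, were in none of the 10 and in 1 of the 11, Klf4. Mesp1 is outside the 15 that rose most and came from a list of 14 primitive streak genes described below. Of that list, 12 genes matched a promoter. Among the 12, 2 (Mesp1 and Foxa2) held the TCF/LEF letters, 2 (T and Mesp1) the T-box letters and 1 (Mesp2) the FoxH1 letters. These matches are descriptions of the letters in the window and say nothing of binding.

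Treated knockout cells were higher than knockout cells in LIF for most tested genes of the primitive streak, definitive endoderm and early mesoderm. Most tested genes of extraembryonic endoderm and of the formative and primed epiblast were higher too. Most of the naive pluripotency network, germline genes and LIF signalling genes were lower. Of 13315 genes tested, 1121 rose (8.42%) and 1442 fell (10.8%) in treated knockout cells relative to knockout cells in LIF. The median log2 difference of all tested genes was -0.00257. At the adjusted p alone, 30.0% of tested genes were higher and 31.0% were lower. Among the called genes, 1098 of the 1121 that rose and 1427 of the 1442 that fell had knockout groups that did not overlap, a state found in 33.1% (higher) and 34.2% (lower) of all tested genes. The call and the overlap rest on the same libraries, so this difference follows largely from the call and is not separate support.

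**Figure D1:**
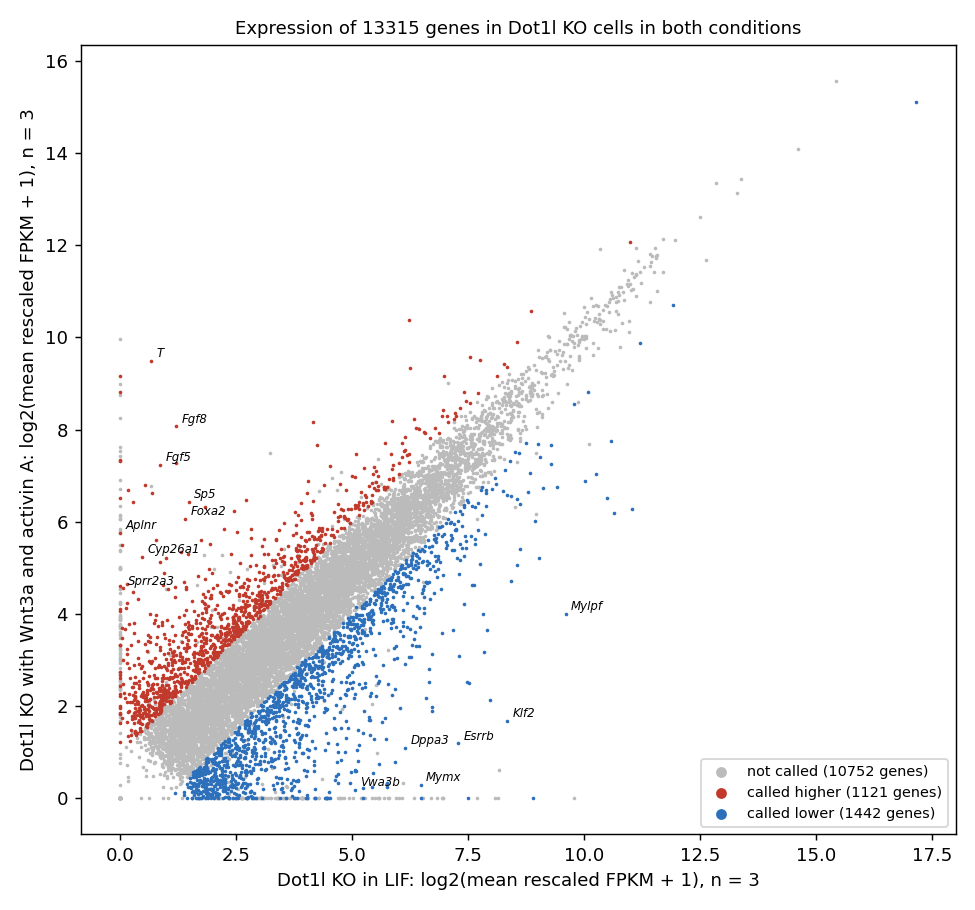
Each point is 1 of 13315 tested genes, with its mean in knockout cells in LIF on the horizontal axis and in treated knockout cells on the vertical axis, both as log2(rescaled FPKM + 1), n = 3 each. The 1121 called higher lie above the diagonal band and the 1442 called lower lie below it; points on an axis are genes listed at 0 in that group, and grey points away from the diagonal missed the adjusted p.

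The primitive streak list showed the largest rises. Of its 14 members, all tested, 13 rose, none fell and 1 was not called, with a median log2 difference of 4.60. T had 728, 708 and 727 rescaled FPKM in treated knockout cells, against 1.11, 0.41 and 0.205 in knockout cells in LIF. It was among the most abundant genes in each treated library, and its percentile rank among tested genes was 98.9 in treated cells and 5.07 in LIF. The log2 difference of T was 8.88 ± 0.17 (SE, n = 3 each), with an adjusted p of 5.85e-11 in limma. Mixl1, a homeobox factor of the streak, had 88.2, 84.7 and 82.9 in treated knockout cells, against 0.181, 0.274 and 0.158 in LIF. Eomes, the T-box factor needed for definitive endoderm, had 78.8, 77.7 and 78.4 in treated cells, against 2.43, 2.51 and 2.75 in LIF. Neither gene had overlapping groups, and their log2 differences were 6.16 ± 0.07 and 4.48 ± 0.1 (SE).

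Secreted factors and regulators of the streak rose with these. Fgf8, the streak's fibroblast growth factor, had 258, 270 and 275 in treated knockout cells, against 1.07, 1.29 and 1.53 in LIF. Wnt3, the ligand that starts the streak in the mouse embryo, had 20.6, 22.2 and 21.2 in treated cells, against 0.23, 0.0797 and 0.312 in LIF. Both were high in each treated library and near the bottom of the range in each LIF library, with log2 differences of 6.87 ± 0.15 and 4.21 ± 0.1. Evx1, a homeobox factor of the posterior streak, averaged 24.1 ± 1.79 in treated cells and 0.104 ± 0.149 in LIF (SD, n = 3 each). Gsc, a homeobox factor of the anterior streak, averaged 97.7 ± 2.99 in treated cells and 0.594 ± 0.101 in LIF, so genes assigned to the posterior and anterior streak were both among those that rose. Lhx1, a LIM homeobox factor of streak and node, had 95.6, 105 and 107 in treated cells, against 0.0647, 0.204 and 0.117 in LIF. Chrd, a secreted BMP antagonist of the anterior streak and node, rose by a log2 difference of 2.83 ± 0.12 to 9.21 ± 0.111 in treated cells, against 0.445 ± 0.168 in LIF. Tbx6, a T-box factor of paraxial mesoderm, rose by 1.18 ± 0.15. The member not called was Mesp2, a factor of somite formation, at 1.72 ± 0.266 in treated cells and 1.45 ± 0.174 in LIF.

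**Figure D2:**
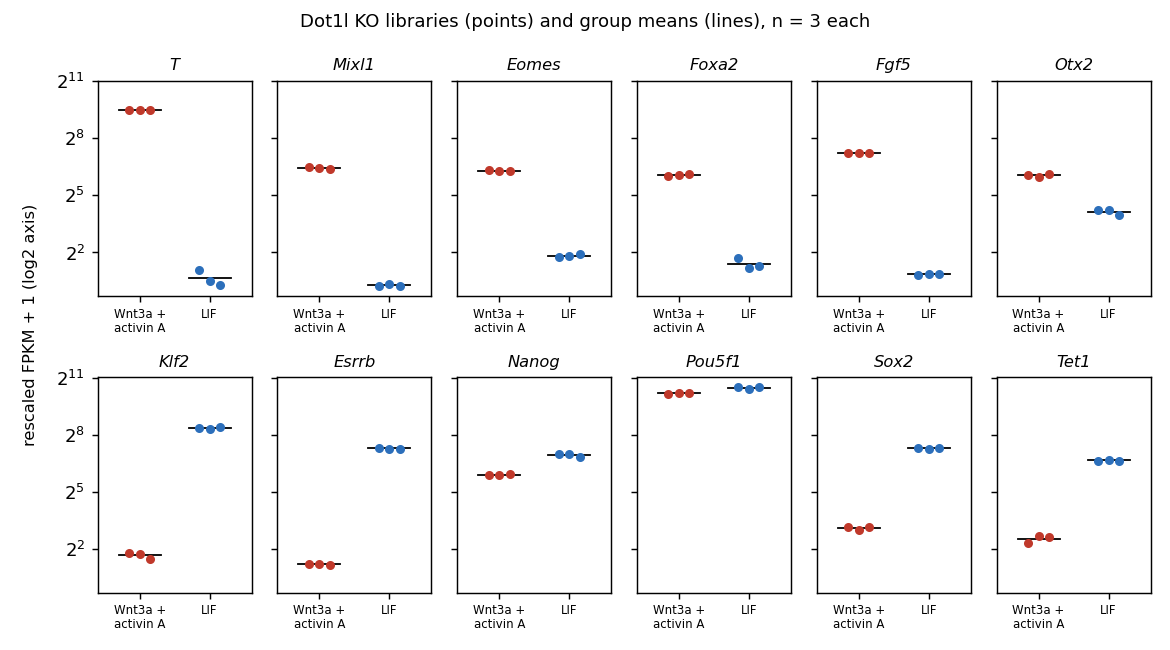
Each panel shows 1 gene, with treated knockout libraries (red) left of knockout libraries in LIF (blue) as rescaled FPKM + 1 on a log2 axis; points are libraries and lines are means of n = 3. T, Mixl1, Eomes, Foxa2, Fgf5 and Otx2 are higher in each treated library, Klf2, Esrrb, Nanog, Sox2 and Tet1 are lower in each, and Pou5f1 differs little.

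Genes of definitive endoderm, the germ layer of gut and its derivatives, all rose where tested. The list has 9 members, 1 of which was under the filter, and the 8 others had a median log2 difference of 3.21. Foxa2, Gsc and Cer1 are in the streak list too, so the lists are not independent. Foxa2, a forkhead factor of anterior streak and endoderm, had 63.7, 66.8 and 67.8 in treated knockout cells, against 2.23, 1.26 and 1.44 in LIF. Sox17, the endoderm Sox factor, had 42, 44.8 and 47.6 in treated cells, against 2.68, 2.88 and 2.82 in LIF. The treated libraries lay above all LIF libraries for both, by log2 differences of 4.68 ± 0.13 and 3.59 ± 0.1. Cer1, a secreted blocker of Nodal and BMP ligands, had 45.3, 44.1 and 43.6 in treated cells and was listed at 0, 0 and 0.0616 in LIF. Cxcr4, a chemokine receptor used to sort endoderm, had 7.95, 9.81 and 13.3 in treated cells, against 0.676, 0.465 and 0.561 in LIF. Gata6 and Gata4, zinc finger factors of endoderm, rose by 2.2 ± 0.07 and 1.68 ± 0.16, and Hhex, a homeobox factor of anterior endoderm, by 1.52 ± 0.1.

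Several of those genes also mark extraembryonic endoderm, the lineage of the yolk sac, and that list was examined beside them. It has 15 members, 2 of which were under the filter. Of the 13 tested, 12 rose and none fell, with a median log2 difference of 1.97, and the summed level of the list was 1140 to 1160 in treated knockout cells and 335 to 356 in LIF. Genes of the extracellular matrix took most of that sum. Col4a1 had 295, 286 and 295 in treated cells, against 57.2, 59.6 and 53.2 in LIF, and Lama1 averaged 53.3 ± 1.92 in treated cells and 12.9 ± 0.269 in LIF. Dab2, an endocytic adaptor, rose by 2.30 ± 0.15 and Sox7, a Sox factor of primitive endoderm, by 1.56 ± 0.1. The yolk sac secreted proteins Ttr and Afp stayed under the filter, with Ttr at 2.36, 1.68 and 1.9 in treated cells against 0.0931, 0 and 0 in LIF, and Afp at 0.0299, 0.141 and 0.277 in treated cells and listed at 0 in LIF. The part of extraembryonic endoderm cells in the endoderm result was not tested, and in bulk samples more cells of a type and more RNA per cell cannot be told apart.

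Early mesoderm genes rose in part. Of 16 members, 3 were under the filter, and among the 13 tested, 8 rose, 1 fell and 4 were not called, with a median log2 difference of 1.85. Mesp1 and Tbx6, both higher, are in the streak list too. Mesp1 had 12.4, 12.5 and 13.5 in treated knockout cells, against 0.0882, 0.107 and 0.221 in LIF, a log2 difference of 3.60 ± 0.11. Aplnr, the apelin receptor of migrating mesoderm, had 56, 51.5 and 52.3 in treated cells and was listed at 0 in all LIF libraries. Msgn1, a factor of presomitic mesoderm, had 4.78, 5.31 and 6.18 in treated cells and was also listed at 0 in LIF. These genes thus had signal in each treated library and next to none in LIF. Snai1, a repressor that drives epithelial-mesenchymal transition, averaged 23.8 ± 1.75 in treated cells and 4.2 ± 0.316 in LIF. Rspo3, a secreted enhancer of Wnt signalling, rose by 2.78 ± 0.22, Dll3 by 2.23 ± 0.17 and Cdx2, a factor of posterior identity, by 1.85 ± 0.18. Dll1, a Notch ligand, was the member that fell, with 5.04, 7.21 and 7.19 in treated cells, against 33.7, 36 and 32.6 in LIF. Bmp4 was not called in knockout cells, with 12.6, 9.1 and 9.31 in treated cells and 5.85, 17.8 and 5.35 in LIF, and its groups overlapped.

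Genes of the formative and primed epiblast moved up with an exception. Of 10 members, 7 rose, 1 fell and 2 were not called, with a median log2 difference of 1.59. Fgf5, the classical marker of primed epiblast, had 152, 149 and 149 in treated knockout cells, against 0.76, 0.847 and 0.837 in LIF, a log2 difference of 6.38 ± 0.06. Otx2, a homeobox factor of primed epiblast and the anterior embryo, had 67.6, 62.2 and 67.8 in treated cells, against 17.8, 17.5 and 14.5 in LIF. The locus given for Otx2 is shared by 13 listed genes, so its value may hold reads of others. Both were higher in each treated library, although Fgf5 was near 0 in LIF and Otx2 was not. Cdh2, N-cadherin, rose by 3.41 ± 0.11, Zic2 by 2.49 ± 0.08, Sall2 by 1.79 ± 0.09 and Sox3 by 1.39 ± 0.09. Pou3f1 and Foxd3 were not called, at log2 differences of 0.67 and -0.51. Of the de novo DNA methyltransferases, Dnmt3b rose, with 174, 182 and 176 in treated cells against 75.9, 72.3 and 72 in LIF, while Dnmt3a fell, with 32.4, 32.1 and 34.3 in treated cells against 230, 207 and 212 in LIF.

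The naive pluripotency network fell almost as a whole. Of 19 members, 18 fell, none rose and 1 (Klf5) was not called, with a median log2 difference of -4.26. Klf2, a Krüppel-like factor of ground-state cells, had 2.47, 2.31 and 1.81 in treated knockout cells, against 325, 315 and 335 in LIF. Esrrb, an orphan nuclear receptor, had 1.34, 1.32 and 1.2 in treated cells, against 158, 153 and 153 in LIF. Neither kept more than a small part of its level in any treated library, and the log2 differences were -6.68 ± 0.13 and -6.09 ± 0.05, with adjusted p of 5.99e-11 and 2.71e-13 in limma. Klf4 had 5.83, 4.46 and 3.89 in treated cells, against 183, 175 and 171 in LIF. Zfp42, known as Rex1 and used as a reporter of the naive state, averaged 2.72 ± 0.381 in treated cells and 104 ± 1.44 in LIF. Nr0b1, an orphan receptor of naive cells, fell by 5.02 ± 0.12, Fgf4 by 5.12 ± 0.1 and Dppa3, a maternal factor that guards DNA methylation, by 5.05 ± 0.27 on the log2 scale. The most abundant member, Dppa5a, had 70.6, 82.2 and 75.5 in treated cells, against 2160, 1970 and 2180 in LIF. Nanog fell least among the called members, with 58.7, 58.4 and 59.6 in treated cells against 127, 124 and 115 in LIF, a log2 difference of -1.03 ± 0.08. Klf5 was at 23.8 ± 0.357 in treated cells and 43.7 ± 0.888 in LIF, a log2 difference of -0.85 that did not reach 2-fold.

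The factors shared by naive and primed cells split. Of 12 members of the general pluripotency list, 5 fell, none rose and 7 were not called, with a median log2 difference of -0.72. Pou5f1, the POU factor Oct4, had 1120, 1170 and 1180 in treated knockout cells, against 1450, 1380 and 1440 in LIF. Its groups did not overlap, but the log2 difference was -0.30 ± 0.04, and Sall4 at 205, 184 and 182 in treated cells and 184, 215 and 184 in LIF overlapped. Sox2 had 7.89, 6.85 and 7.82 in treated cells, against 156, 154 and 158 in LIF, a log2 difference of -4.21 ± 0.08. The locus given for Sox2 in the tables is shared by 15 listed genes, so its value may hold reads of others. Dppa2 and Dppa4, paired chromatin factors of ES cells, fell by 3.93 ± 0.14 and 3.62 ± 0.07, Dnmt3l, the cofactor of de novo methylation, by 3.00 ± 0.05 and Utf1 by 2.93 ± 0.06. Lin28a, an RNA-binding protein, averaged 211 ± 4.87 in treated cells and 113 ± 7.16 in LIF, a log2 difference of 0.89 that was not called.

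LIF signalling genes fell as well. They included receptor and transducer genes (Lifr, Il6st, Jak1 and Stat3) as well as targets. Of 8 members, 7 fell and 1 (Junb, log2 difference -0.68) was not called, with a median of -1.70. Socs3, the feedback inhibitor induced by Stat3, had 4.31, 3.17 and 7.16 in treated knockout cells, against 46.8, 44.6 and 49.7 in LIF. Bcl3 fell by 3.57 ± 0.15, the kinase gene Pim1 by 2.74 ± 0.05 and Stat3 itself by 1.66 ± 0.11. Il6st, the shared receptor subunit gp130, had 21.1, 26.4 and 24.6 in treated cells, against 64.5, 63.2 and 84.1 in LIF. LIF was absent from the stated treatment medium, so the medium moves with this list, and its part in the result was not tested.

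**Figure D3:**
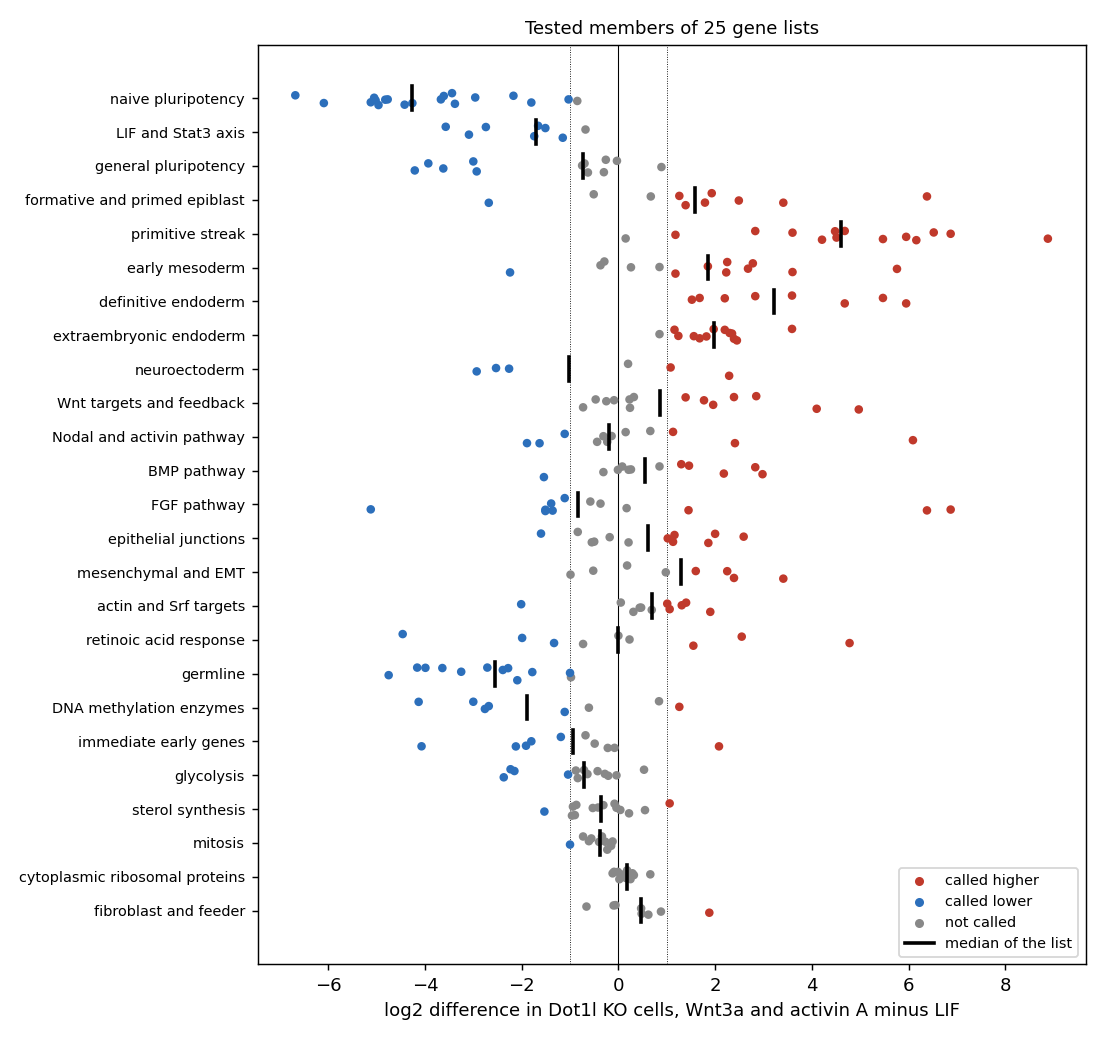
Each point is a tested member of 1 of 25 gene lists, placed by its log2 difference in knockout cells, treated minus LIF; red is called higher, blue called lower, grey not called, black bars are list medians and dotted lines mark a log2 difference of 1. The naive pluripotency and germline lists lie left of 0, and the primitive streak, definitive endoderm and extraembryonic endoderm lists lie right of it.

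Wnt feedback genes rose where the list moved. Of 16 members, 2 were under the filter, and among the 14 tested, 7 rose, none fell and 7 were not called, with a median log2 difference of 0.86. Sp5 had 82.2, 85.8 and 89.2 in treated knockout cells, against 1.92, 1.57 and 1.82 in LIF, a log2 difference of 4.97 ± 0.09. Axin2, the scaffold that limits β-catenin, had 32.6, 32.9 and 30.4 in treated cells, against 7.59, 8.49 and 6.42 in LIF. Both classical targets were thus higher in each treated library. Frzb, a secreted Wnt antagonist, rose by 4.10 ± 0.13, the antagonist Dkk1 by 2.85 ± 0.11, Sp8 by 2.39 ± 0.15, Nkd1 by 1.77 ± 0.1 and the nuclear partner Lef1 by 1.39 ± 0.12. Tcf7 (at a locus shared by 19 listed genes, 45.5 ± 0.586 treated, 54.5 ± 0.654 in LIF), Ccnd1 (63.9 ± 2.09 treated, 54.4 ± 4.92 in LIF) and Sfrp1 (8.38 ± 0.789 treated, 11.9 ± 0.412 in LIF) were not called.

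Members of the Nodal and activin pathway moved in both directions, with 3 of 12 higher, 3 lower and 6 not called and a median log2 difference of -0.18. Fst, the secreted activin antagonist follistatin, had 163, 148 and 147 in treated knockout cells, against 1.43, 0.727 and 1.7 in LIF. Foxh1, the forkhead partner of Smad proteins, rose by 1.13 ± 0.08. The inhibitors Skil and Smad7 fell by 1.89 ± 0.08 and 1.63 ± 0.12, and the secreted inhibitor Lefty1 had 70, 82.5 and 83.7 in treated cells, against 166, 166 and 179 in LIF, a log2 difference of -1.11 ± 0.08. Nodal itself averaged 65.9 ± 1.81 in treated cells and 41.4 ± 2.57 in LIF, and Lefty2 19.8 ± 1.45 in treated cells and 27.1 ± 1.8 in LIF, and neither was called.

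BMP ligands and targets also divided, with 5 of 12 higher, 1 lower and 6 not called and a median of 0.56. Msx1, a homeobox BMP target, had 10.5, 10.6 and 11 in treated knockout cells, against 0.545, 0.198 and 0.792 in LIF. The ligand genes Bmp2 and Bmp7 rose by 2.18 ± 0.12 and 1.30 ± 0.08 and the antagonist gene Nog by 1.46 ± 0.16. Among the Id genes, which encode inhibitors of bHLH factors, Id2 fell by 1.54 ± 0.07, while Id1 (log2 difference 0.21) and Id3 (0.08) were not called.

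The FGF list had 3 of 12 members higher, 6 lower and 3 not called, with a median of -0.85. The ligands moved apart: Fgf8 and Fgf5 rose, and Fgf4, the ligand of naive ES cells, had 0.863, 0.694 and 0.641 in treated knockout cells, against 55.6, 64.1 and 58.2 in LIF. The feedback genes moved apart too. Dusp6, a phosphatase that inactivates ERK, had 131, 124 and 126 in treated cells, against 48.1, 45.9 and 43.7 in LIF, a log2 difference of 1.45 ± 0.08. Spry4, another ERK feedback inhibitor, had 10.7, 10.7 and 10.3 in treated cells, against 32.6, 31.4 and 31.8 in LIF, a log2 difference of -1.51 ± 0.05. Etv5 and Etv4, ETS factors downstream of FGF, fell by 1.39 ± 0.04 and 1.11 ± 0.11. Fgfr1 averaged 41.4 ± 3.97 in treated cells and 36.6 ± 2.77 in LIF and was not called.

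Cell adhesion genes did not show a plain exchange of epithelial for mesenchymal markers. Of 12 epithelial genes, 6 rose, 1 fell and 5 were not called, with a median log2 difference of 0.62, and of 9 mesenchymal genes, 1 was under the filter, 4 rose, none fell and 4 were not called, with a median of 1.29. Krt8, an epithelial keratin, had 93.9, 99 and 99 in treated knockout cells, against 15.6, 14.5 and 15.8 in LIF, and Krt18 and Krt19 rose by 2.00 ± 0.06 and 1.86 ± 0.17. Cdh1, E-cadherin, averaged 110 ± 1.78 in treated cells and 161 ± 1.71 in LIF and was not called, nor was Epcam at 107 ± 1.15 in treated cells and 152 ± 4.59 in LIF. Cldn6 rose by 1.13 ± 0.04 and Cldn4 fell by 1.60 ± 0.06, so claudins, the strand proteins of tight junctions, moved in both directions. Among mesenchymal genes, Cdh11 rose by 2.39 ± 0.21 and Twist1 by 1.60 ± 0.15. Vim had 281, 281 and 292 in treated cells and 134, 119 and 186 in LIF, a log2 difference of 0.98, and without knockout LIF replicate 3 it was 1.17 and called. Fn1 averaged 104 ± 3.93 in treated cells and 149 ± 8.79 in LIF and was not called.

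Feeder and fibroblast markers were examined because cells in LIF grew on feeders. Of 12 markers, 4 were under the filter, 1 of the 8 tested rose (Col3a1, by 1.88 ± 0.29) and none fell. Their summed level was 57.9 to 62.9 in treated knockout cells and 48.6 to 59.0 in LIF. Dcn, Lum and Postn ranged from 0 to 0.649 in treated cells and from 0 to 0.738 in LIF. Col1a1 had 6.19, 6.67 and 5.97 in treated cells, against 5.5, 3.11 and 2.99 in LIF. Dcn, Lum and Postn were thus at or near 0 in both conditions, while Col1a1 and other markers that passed the filter were not.

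Actin and Srf target genes, which encode the contractile and cytoskeletal proteins, had 5 of 11 tested members higher, 1 lower and 5 not called, with 2 more under the filter and a median of 0.69. Tpm1, a tropomyosin, had 296, 302 and 298 in treated knockout cells, against 78.9, 78.6 and 81 in LIF. Tagln rose by 1.31 ± 0.11, but 8 listed genes share its locus. Immediate early genes, whose transcription follows growth factor and stress signals, went mostly down, with 5 of 10 lower, 1 higher and 4 not called and a median of -0.94. Fosb had 2.92, 3.33 and 2.43 in treated cells, against 67.1, 62.1 and 63.2 in LIF. Fos fell by 2.12 ± 0.1, Dusp1 by 1.91 ± 0.05, Egr1 by 1.80 ± 0.04 and Ier2 by 1.19 ± 0.05. Myc was the member that rose, with 69.4, 73.6 and 71.7 in treated cells, against 17.2, 14.3 and 17.3 in LIF, while Jun was at 19.2 ± 0.841 in treated cells and 20.3 ± 0.987 in LIF.

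Germline genes fell. Of 14 members, 2 were under the filter, and of the 12 tested, 11 fell, none rose and 1 was not called, with a median log2 difference of -2.55 and a summed level of 13.9 to 15.1 in treated knockout cells and 229 to 239 in LIF. Tex19.1, a germ cell gene that restrains retrotransposons, had 2.78, 3.06 and 2.96 in treated cells, against 107, 101 and 105 in LIF. Mael and Mov10l1, both of the piRNA pathway, fell by 3.99 ± 0.21 and 3.25 ± 0.21. Tuba3a, a testis tubulin, fell by 4.16 ± 0.09, Sohlh2, a germ cell bHLH factor, by 3.64 ± 0.09, Hormad1, a meiotic chromosome axis protein, by 2.71 ± 0.14, Ddx4 by 2.39 ± 0.13 and Dazl by 2.28 ± 0.11. The 7 genes of the two-cell-like state found in the tables were all under the filter, with a summed level of 0.0373, 0.337 and 0.316 in treated cells, against 6.3, 4.79 and 5.01 in LIF.

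Enzymes that write and erase DNA methylation moved mostly down, with 5 of 8 lower, 1 higher (Dnmt3b) and 2 not called and a median of -1.89. Tet1, a methylcytosine dioxygenase abundant in ES cells, had 3.89, 5.33 and 5.14 in treated knockout cells, against 98.8, 101 and 98.2 in LIF, and Tet2 had 1.45, 0.837 and 0.701 in treated cells, against 16.8, 11.6 and 9.62 in LIF. Their log2 differences were -4.13 ± 0.18 and -2.76 ± 0.24. Dnmt1, the maintenance enzyme, averaged 47.3 ± 0.455 in treated cells and 73.1 ± 4.17 in LIF and was not called.

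Among 9 genes of Dot1l and its partners in elongation complexes, 1 rose and 3 fell. Men1, which encodes menin, had 61, 73.5 and 59.9 in treated knockout cells, against 30.8, 28.2 and 26.5 in LIF. Aff4, the scaffold of the super elongation complex, had 22.5, 17.5 and 17.2 in treated cells, against 52, 54.5 and 51.5 in LIF, and Ell2 and Mllt3 fell by 1.39 ± 0.19 and 1.25 ± 0.2. Dot1l itself had a log2 difference of 0.44 ± 0.09 in knockout cells, with an adjusted p of 0.00179 in limma, and was not called.

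Retinoic acid response genes had 3 of 9 tested members higher, 3 lower and 3 not called, with 1 under the filter and a median of 0.00. Cyp26a1, which degrades retinoic acid, had 40, 36.2 and 34.4 in treated knockout cells, against 0.331, 0.401 and 0.392 in LIF. Stra8, a retinoic acid target of germ cells, was listed at 0 in each treated library and had 22.3, 18.9 and 21.7 in LIF, and Crabp1 fell by 1.99 ± 0.07. Of 8 Hox genes, 2 passed the filter, of which 1 rose and 1 fell. Hoxb1 rose to 2.54, 3.34 and 3.32 in treated cells, against 0.366, 0.365 and 0.409 in LIF. Of 12 neuroectoderm genes, 6 were under the filter, 2 rose and 3 fell. Nes, an intermediate filament gene, rose by 2.29 ± 0.08, and Pax6 and Neurod1 fell by 2.53 ± 0.15 and 2.93 ± 0.13. Sox1, the defining neural marker, was under the filter, at 0.154 ± 0.0147 in treated cells and 0.864 ± 0.107 in LIF.

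Metabolic and housekeeping genes were counted in the same way. Of 13 glycolysis genes, 4 fell and none rose, with a median of -0.71. The glucose transporter Slc2a3 had 106, 103 and 108 in treated knockout cells, against 571, 563 and 520 in LIF, and Slc2a1 had 100, 97.7 and 99.4 in treated cells, against 449, 438 and 444 in LIF. Hk1 and Pgk1 fell by 2.23 ± 0.09 and 1.04 ± 0.05, while Gapdh (log2 difference -0.21) and Ldha (-0.04) were not called. Of 15 G1 and S phase genes, 1 rose and 4 fell, with a median of 0.11. Ccne1, cyclin E1, had 81.6, 85 and 74.8 in treated cells, against 242, 238 and 231 in LIF, and Ccne2, its paralogue, had 46.9, 46 and 51.6 in treated cells, against 16, 16.7 and 14.6 in LIF. E2f1 fell by 1.82 ± 0.08 and Mcm2, a helicase subunit, by 1.12 ± 0.07. Of 14 sterol synthesis genes, 1 rose and 1 fell, Insig1, by 1.53 ± 0.06, and none of 16 cytoplasmic ribosomal protein genes was called, with a median of 0.18. Of 12 mitochondrially encoded genes, 5 were under the filter, and of the 7 tested, 2 rose and none fell, with a median of 0.89. Their summed level was 6360 to 7590 in treated knockout cells and 3890 to 4570 in LIF. Across the alternatives, 0 to 3 of them were called higher.

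The 30 genes with the largest differences also included some outside the lists. Among the 15 that rose most, Rtl8c, a gene derived from a retrotransposon, had 110, 104 and 115 in treated knockout cells, against 0.485, 0.589 and 0.243 in LIF. Alox15, a lipoxygenase, had 45.6, 47.6 and 50.6 in treated cells, against 0.338, 0.519 and 1.25 in LIF. Sprr2a3, of the small proline-rich family, had 21, 23.2 and 23.7 in treated cells and was listed at 0, 0 and 0.0993 in LIF. Each was high in all treated libraries and low in all LIF libraries. Near-identical copies of Sprr2a3 make its value uncertain.

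Among the 15 that fell most, Mylpf, a myosin light chain of fast muscle, had 14.8, 14.9 and 15.3 in treated knockout cells, against 848, 775 and 710 in LIF. Mymx, which encodes the fusion peptide myomixer, had 0.238, 0.437 and 0 in treated cells, against 88.9, 89.2 and 86.1 in LIF. Both are known for roles in muscle, and both were high in each LIF library of these ES cells. Jam2, a junction adhesion molecule, had 0.184, 0.181 and 0.211 in treated cells, against 51.8, 55.8 and 50.7 in LIF. Rpl39l, a ribosomal protein paralogue, fell by 5.40 ± 0.28, the noncoding RNA gene Halr1 by 5.21 ± 0.15, the dehydrogenase Hsd17b14 by 5.03 ± 0.24 and the surface antigen Gpa33 by 4.91 ± 0.08. Vwa3b fell by 4.88 ± 0.2, and Hsf2bp, a meiotic recombination gene whose locus 3 listed genes share, by 4.87 ± 0.16. The adjusted p of these 30 genes ran from 2.71e-13 to 2.21e-06 in limma.

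By level alone, 58 genes were switched on and 85 switched off in knockout cells, meaning under 1 rescaled FPKM in every library of the lower condition and at 5 or more in every library of the other. In control cells the same rule gave 64 on and 99 off. Of the knockout genes, 28 of those switched on (48.3%) and 44 of those switched off (51.8%) met the rule in control cells too. Missing the rule in control cells need not mean a different response. The test of knockout against control response given below called 17 of the 58 and 3 of the 85. Of all tested genes it called 3.79% higher and 2.04% lower. All of the 17 but Cpz (-1.24) were called higher, and the 3 were called lower. The knockout libraries that picked the 58 and 85 enter that test, so these shares are not separate support. In the knockout response itself, all 58 and 84 of the 85 were called. The rule used the same libraries and nearly fixes that outcome, so it is not separate support. Clone, predicted or small RNA names made up 3 of the 58 and 17 of the 85. With levels of 0.5 and 2 in place of 1 and 5, 85 genes were on and 154 off. The genes named next were chosen after their values were seen. Apln, the ligand of the apelin receptor, had 33.8, 32.7 and 34.8 in treated knockout cells, against 0.801, 0.971 and 0.625 in LIF, so ligand and receptor both appeared in treated cells. Cfc1, a Nodal coreceptor at a locus shared by 3 listed genes, had 6.45, 8.61 and 8.33 in treated cells, against 0.113, 0.206 and 0 in LIF, and Six2, a homeobox factor, had 6.04, 7.02 and 6.25 in treated cells, against 0.205, 0.214 and 0.265 in LIF. Pecam1, an adhesion molecule of ES and endothelial cells, had 0.549, 0.623 and 0.455 in treated cells, against 31.9, 35.6 and 29.6 in LIF. Nr5a2, a nuclear receptor that activates Pou5f1, had 0.399, 0.275 and 0.247 in treated cells, against 14.6, 12.5 and 12.7 in LIF, and Tcl1 had 0.498, 0.235 and 0.707 in treated cells, against 33.4, 28.7 and 29.3 in LIF. Ooep, an oocyte protein gene, had 0.259, 0.372 and 0.332 in treated cells, against 23.8, 24.8 and 23.1 in LIF.

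Most genes called in knockout cells were called in the same direction in control cells. Of the 1121 genes that rose in knockout cells, 823 also rose in control cells, which is 73.4% of the knockout list and 50.4% of the 1633 genes that rose in control cells (12.3% of those tested). Of the 1442 that fell in knockout cells, 1164 also fell in control cells, which is 80.7% of the knockout list and 55.0% of the 2115 that fell in control cells (15.9%). With libraries scaled to a common sum, the control calls were 858 higher and 3185 lower, and the shared genes were 55.4% of the knockout list and 73.0% of the control list for the higher calls, and 87.8% of the knockout list and 41.4% of the control list for the lower calls. In the main scaling, 5 and 2 of the knockout genes were called in the opposite direction in control cells.

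Whether knockout and control responses differed was tested as an interaction, the knockout difference minus the control difference, which cancels any factor of a table. It called 504 genes higher (3.79%) and 271 lower (2.04%), so 65.0% of the calls were higher. Of the 504, 90 were called as rising in knockout cells and 62 as falling. Of the 271, 70 were called as falling in knockout cells and 32 as rising. The other interaction calls were at genes not called in the knockout response. With libraries scaled to a common sum instead, the calls were 1281 higher and 96 lower, 93.0% higher, and the median of all tested genes was 0.302 rather than -0.00899. The balance between the directions therefore depends on the scaling, and with quantile normalization 59.2% were higher. The higher calls included streak, mesoderm and endoderm genes, 6 of 14, 5 of 13 and 4 of 8 tested members, with no member of these lists called lower. Mesp1 counts in both the streak and mesoderm lists and Cer1 in both the streak and endoderm lists.

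Lhx1 reached 95.6, 105 and 107 in treated knockout cells, while control cells averaged 7.61 ± 0.757 with treatment and 0.109 ± 0.103 in LIF (SD, n = 3 each). The knockout response exceeded that of control cells by 3.56 ± 0.14 (SE of the interaction, adjusted p 7.71e-07 in limma), and the LIF levels of both genotypes were near 0. Mesp1 averaged 12.8 ± 0.62 in treated knockout cells and 0.974 ± 0.0651 in treated control cells, a difference in response of 2.69 ± 0.15. Cer1 averaged 44.3 ± 0.845 in treated knockout cells and 7.34 ± 0.657 in treated control cells. Mixl1 averaged 85.3 ± 2.66 in treated knockout cells and 27 ± 0.892 in treated control cells, and Frzb averaged 18 ± 0.472 in treated knockout cells and 2.2 ± 0.591 in treated control cells. The interactions of Cer1, Mixl1 and Frzb were 2.42 ± 0.11, 1.50 ± 0.1 and 2.5 ± 0.19. Eomes, Cxcr4, Gata6, Cdh2 and Msgn1 were called in the same direction, with interactions of 1.29, 1.90, 1.36, 2.15 and 2.23. Other streak genes were not called. T was at 721 ± 11.1 in treated knockout cells and 553 ± 24.3 in treated control cells, an interaction of 0.45 ± 0.24 with an adjusted p of 0.17. Fgf8 had the opposite sign, at 268 ± 8.69 in treated knockout cells and 316 ± 26.9 in treated control cells, an interaction of -0.57 ± 0.22 (adjusted p 0.0674). Wnt3 had an interaction of 0.06 ± 0.14 (adjusted p 0.745).

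In other genes the levels in LIF or the directions differed too. Ntn1, which encodes the guidance factor netrin, averaged 17.2 ± 0.696 in treated knockout cells and 4.35 ± 0.284 in knockout cells in LIF, but 6.07 ± 0.427 in treated control cells and 13.3 ± 0.495 in control cells in LIF, an interaction of 2.79 ± 0.1. Lef1 averaged 41.5 ± 2.36 in treated knockout cells and 15.3 ± 1.83 in knockout LIF, against 18.9 ± 1.53 in treated control cells and 25.7 ± 4.35 in control LIF. Emx2, a homeobox factor whose locus 2 listed genes share, averaged 8.43 ± 1.11 in treated knockout cells and 0.111 ± 0.134 in knockout LIF, against 1.38 ± 0.831 in treated control cells and 0.761 ± 0.533 in control LIF. Bmp4 had an interaction of 2.31 ± 0.51, with control cells at 3.61 ± 0.106 treated and 18.4 ± 4.95 in LIF. The loci of Ntn1, Lef1 and Bmp4 are each shared by 3 listed genes. Greb1l (4.40) and Fam107b (2.98) also headed the higher calls, but each shares its locus with other listed genes, 4 at each. Greb1l averaged 26.3 ± 11.6 in treated knockout cells and 2.54 ± 0.78 in knockout LIF. Its control LIF libraries were uneven, at 1.22, 13.7 and 2.53, against 0.724 ± 0.269 in treated control cells. Fam107b was not called in knockout cells (log2 difference 0.46). In control cells Fam107b fell, from 43 ± 15.2 in LIF to 6.39 ± 0.546 with treatment. Sept2 (3.57) fell in both genotypes, to 27 ± 3.62 in treated knockout cells, against 56.8 ± 6.67 in knockout LIF, and to 1.77 ± 1.17 in treated control cells, against 61.9 ± 3.05 in control LIF; its knockout call was lost without treated replicate 3 (log2 difference -0.94) and without LIF replicate 2 (-0.96).

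**Figure D4:**
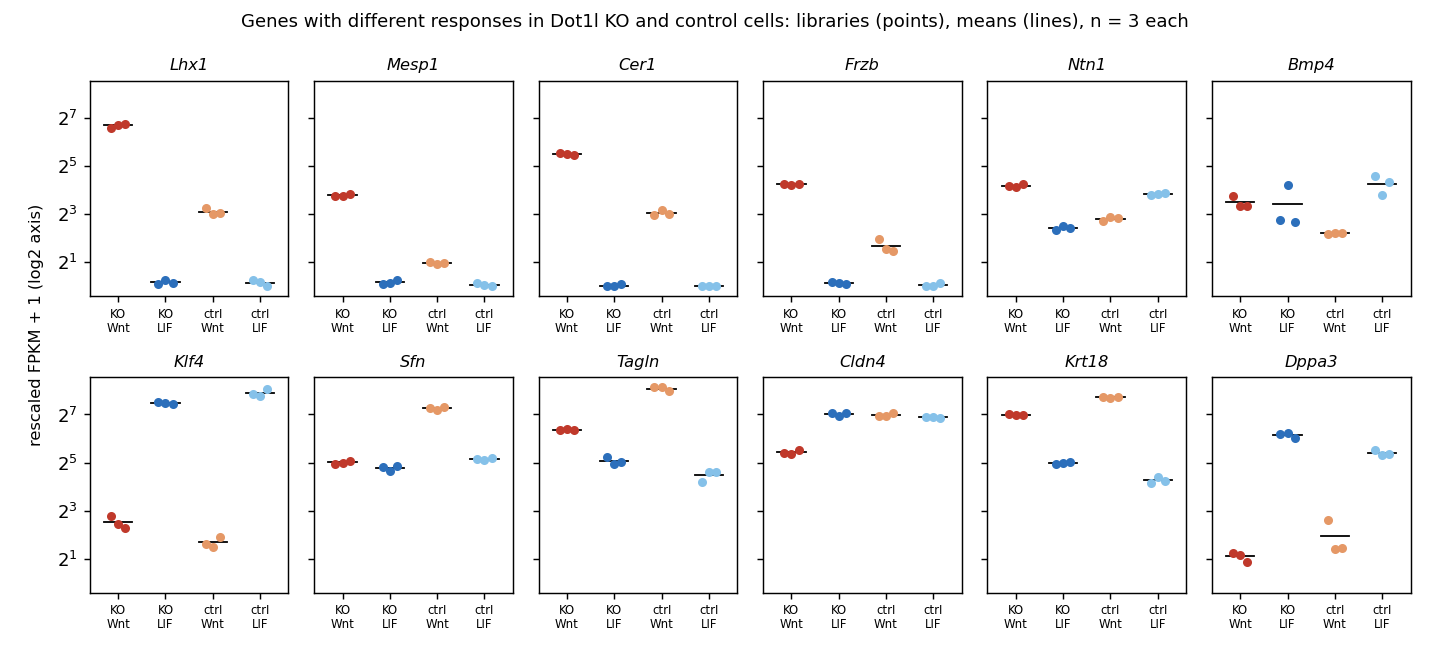
Each panel shows 1 gene in treated and LIF knockout libraries (left) and treated and LIF control libraries (right), as rescaled FPKM + 1 on a log2 axis; points are libraries and lines means of n = 3. Lhx1, Mesp1, Cer1 and Frzb are higher in treated knockout than in treated control libraries, and Sfn, Tagln, Cldn4 and Krt18 are lower.

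Genes whose knockout response was lower than that of control cells included 6 of 12 epithelial genes and 3 of 11 tested actin and Srf targets. Sfn, an epithelial adaptor protein, averaged 31.2 ± 1.44 in treated knockout cells and 26.5 ± 2.32 in knockout LIF, against 153 ± 6.24 in treated control cells and 34.7 ± 0.955 in control LIF, an interaction of -1.87 ± 0.09. Cldn4 averaged 42 ± 2.82 in treated knockout cells and 129 ± 6.71 in knockout LIF, against 126 ± 5.64 in treated control cells and 117 ± 1.39 in control LIF. Cldn3 had an interaction of -1.87 ± 0.15, and Krt18 and Krt19 rose in knockout cells but by less than in control cells, with interactions of -1.46 and -1.66. Tagln averaged 81.7 ± 1.49 in treated knockout cells and 270 ± 16.4 in treated control cells, an interaction of -2.29 ± 0.16. Fgfbp1, a carrier of FGF ligands, averaged 19.9 ± 3 in treated knockout cells and 75 ± 0.926 in treated control cells. Pdlim3 averaged 6.86 ± 1.07 in treated knockout cells and 12.7 ± 1.41 in treated control cells, and Tmem238 averaged 21.2 ± 4.19 in treated knockout cells and 61.8 ± 5.22 in treated control cells. Gng13 and Adamtsl4 were called lower by 1.74 and 2.04, but both rested on low values. Gng13 had 1.55, 0.497 and 3.03 in treated knockout cells and 5.48, 3.91 and 8.31 in treated control cells, and 2 listed genes share its locus. Adamtsl4 had 0.707, 1.28 and 0.112 in treated knockout cells. The call of Adamtsl4 was lost in 12 of 21 alternatives. In those its interaction ran from -2.70 to -1.64 with adjusted p of 0.0502 to 0.126 in limma.

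Among 19 naive pluripotency genes the interaction called 2 higher and 2 lower. Klf4 averaged 4.73 ± 0.999 in treated knockout cells and 2.21 ± 0.501 in treated control cells, an interaction of 1.25 ± 0.19, and Klf5 had one of 1.11. Dppa3 averaged 1.14 ± 0.274 in treated knockout cells and 69.8 ± 4.93 in knockout LIF, against 2.83 ± 2 in treated control cells and 40.9 ± 3.22 in control LIF, an interaction of -1.49 ± 0.38. Fbxo15, an F-box gene of ES cells named here after its value was seen, had an interaction of -1.09. Sall4, of the general pluripotency list, averaged 190 ± 12.8 in treated knockout cells and 100 ± 4.91 in treated control cells, an interaction of 1.18 ± 0.11. Esrrb, Klf2 and Nanog were not called, with interactions of 0.04, -0.36 and -0.13. The naive list as a whole had a median log2 difference of -4.26 in knockout cells and -4.00 in control cells, the streak list 4.60 in knockout cells and 3.43 in control cells, and the definitive endoderm list 3.21 in knockout cells and 2.06 in control cells.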

How the data were processed

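RNA-seq libraries of Dot1l knockout and control ES cells were read from the authors' deposited tables of FPKM, one table per condition. Per the submitters' processing notes, the tools used in the series include STAR 2.5.4a, Cufflinks 2.2.1 and Cuffdiff, and the builds named are mm9 and GRCm38; their roles and the build of these tables are not stated there. The FPKM tables carry no counts, so depth is unknown and count tests do not apply. Because the authors scaled the tables separately, the 12 libraries were rescaled by median-of-ratios factors over 14839 genes above 0 in every library (0.941 to 1.06), which removes any factor of a whole library; table and condition cannot otherwise be told apart. Genes averaging at least 1 were tested on log2(rescaled FPKM + 1), pseudocount 1, with limma 3.58.1 (R 4.3.3, trend, 1 model of 4 groups, 8 residual degrees of freedom), two-sided, with Benjamini-Hochberg adjustment over 13315 genes. Adjusted p-values are limma's throughout. Data were simulated for the knockout contrast, with 200 of 13315 genes changed. In these, 95% of changes of 1.5 on the log2 scale and 98% of changes of 2 were recovered. The changes were placed only in genes well above the filter in knockout cells in LIF, so recovery for low genes was not measured. The members and gene lists were chosen with earlier results of these data known. Named genes are the 15 higher and 15 lower called genes with the largest differences, groups not overlapping, a mean of at least 5 in a group and no clone, predicted or small RNA name, the 8 and 8 for the interaction, and up to 6 leading or defining members per list. Locus sharing is the number of listed genes given the same coordinates. Of 188 genes that could be named from the rule and lists, 72 share a locus with another listed gene. Of these, 3 have 10 or more listed genes at the locus. Only some of the 72 are marked where they are named, so an unmarked gene may also share its locus. Of the listed IDs, 53616 matched a symbol. Some list members are not reported here by name. Alternatives covered scaling, pseudocount, filter, trend, the replicate block and each library left out.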

Additional observations from a re-analysis of the deposited data

Results flagged for a closer look

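Knockout and control cells differed in their response to Wnt3a and activin A at 504 genes called higher and 271 called lower by the interaction test in limma. The genes below are those called among the genes named. Values are log2 differences, knockout response minus control response, and of these 55 gene results, 43 kept their call under every alternative.

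Among streak, mesoderm and endoderm genes, the interaction was 3.56 for Lhx1, 2.69 for Mesp1, 2.42 for Cer1, 2.31 for Bmp4, 2.23 for Msgn1, 1.90 for Cxcr4, 1.50 for Mixl1, 1.36 for Gata6, 1.31 for Chrd, 1.29 for Eomes, 1.23 for Rspo3 and 1.04 for Hhex. The call of Rspo3 was lost without treated control replicate 3 (0.96) and with a pseudocount of 0.1 (adjusted p 0.254). That of Hhex was lost without treated control replicate 3 (0.93), without knockout LIF replicate 3 (just under 1.00) and with quantile normalization (0.97). In the Wnt, FGF, Nodal and retinoic acid lists it was 2.5 for Frzb, 1.87 for Cyp26a1, 1.83 for Sfrp1, 1.80 for Lef1, 1.39 for Spry4, 1.09 for Sp5, 1.05 for Dusp6 and -1.07 for Lefty1. Dusp6 was 0.98 without treated control replicate 1 and no longer called. Lefty1 lost its call without treated knockout replicate 1 (-0.99), with quantile normalization (-0.86), with a common sum (-0.69) and with the trend of gene span and level removed (-0.62).

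Among epiblast, pluripotency, LIF signalling and germline genes the interaction was 2.15 for Cdh2, 1.25 for Klf4, 1.18 for Zic2 and Sall4, 1.11 for Klf5 and Stat3, -1.17 for Sohlh2, -1.30 for Pou3f1 and Utf1, -1.46 for Sox3, -1.49 for Dppa3 and -1.5 for Dppa4. Utf1 lost its call with quantile normalization (-0.94), a common sum (-0.93) and the trend removed (-0.67), Pou3f1 with a common sum (-0.93) and Stat3 with quantile normalization (0.90) and the trend removed (0.89). Among adhesion, cytoskeletal and early response genes it was 1.86 for Cdh11, 1.21 for Fn1, 1.18 for Fos and Col3a1, -1.13 for Tpm1, -1.46 for Krt18, -1.66 for Krt19, -1.70 for Cldn4, -1.87 for Cldn3 and Sfn, and -2.29 for Tagln. Tpm1 lost its call with quantile normalization and a common sum (-0.75 each) and with the trend removed (-0.90). Col3a1 lost its call in 14 of 21 alternatives, at 0.93 to 1.42 with adjusted p up to 0.217.

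The remaining genes were Greb1l at 4.40, Sept2 at 3.57, Fam107b at 2.98, Ntn1 at 2.79, Emx2 at 2.66, Aff4 at 1.16, Rpl39l at -1.28, Gng13 at -1.74, Tmem238 at -1.99, Pdlim3 at -2.0, and Adamtsl4 and Fgfbp1 at -2.04. Aff4 lost its call with quantile normalization (0.99). Rpl39l lost its call in 9 of 21 alternatives, 6 of which left out a library, at -1.42 to -0.93.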

How the results depend on the processing

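The knockout calls kept their counts within 1.5 times under every alternative, and leaving out each library gave 1103 to 1126 higher and 1432 to 1451 lower. For the interaction, leaving out each library gave 468 to 527 higher and 251 to 287 lower. Scaling to a common sum without genes over 1 percent of a library moved the interaction to 1281 higher and 96 lower, with the median control response at -0.33, and a pseudocount of 0.1 moved the higher count to 786. With levels of 0.5 and 2, 154 genes were switched off. The cause was not tested. Of 240 gene results, 224 kept their call or their lack of one under every alternative that was run. In at least 1 alternative, 13 lost and 3 gained a call, and no called result changed direction. The direction of results without a call was not compared. The median of the retinoic acid list, near 0, changed sign in 10 alternatives, and that of no other list did in the knockout response. Same-numbered knockout libraries did not deviate together (correlations -0.0255, -0.0279 and 0.0432), and a fit with the replicate number as a block called 1119 higher and 1446 lower, and 496 and 271 for the interaction. FPKM without counts gives no depth, so values near 0 have no detection limit.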
